A study of Mus musculus with 4 samples.

Results

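The regions described here are 717 peaks that the authors called for HA-tagged Fbxl10 in induced mouse embryonic fibroblasts (MEFs) and that flank protein-coding genes without touching their ends. They were chosen from 5497 peaks of the induced list by 3 conditions. They overlapped no peak of the non-induced list, their nearer edge lay more than 1 kb and at most 5 kb from the closest start or end (border) of a protein-coding gene, and they lay more than 1 kb from every border of a gene of another biotype. Of the induced peaks, 5312 (96.6%) overlapped no non-induced peak, and the flanking peaks were 13.5% of these (95% interval 12.6 to 14.4).

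Both conditions were MEFs from a gain-of-function model whose genotype is labelled as overexpressing HA-tagged Fbxl10. The induced cells had 48 hours of doxycycline at 1 µg/ml, and the non-induced cells had none. Both were precipitated with an HA antibody, and 1 peak list of each was used. The protocol speaks of 3 independent samples without saying how they entered the lists. A single list for each condition leaves no replicates to compare, so values are given as descriptions with no test, and intervals are exact 95% intervals that cover counting error only. Read totals are unknown, so the lack of a peak in a list does not show that there was no signal. The labels do not name the promoter of the transgene. The deposited lists hold no expression, so the labelled cell type could not be checked against markers.

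Fbxl10, also called Kdm2b, is a histone demethylase with a CXXC zinc finger that binds DNA at unmethylated CG dinucleotides. It is a subunit of the Polycomb complex PRC1.1, which adds ubiquitin to histone H2A. CpG islands, the CG-rich stretches at most mammalian promoters, often reach past the start of the gene, and many genes have further transcription starts inside the annotated gene body.

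The 12 peaks with the highest scores show what these regions look like. The score is the authors' own value for each peak, it began at 50 in both lists, and how it was calculated is not stated. The highest peak (score 308, chr8:84664120-84665760, mm10) lay 1268 bp outside Ier2, an immediate early gene. The next (265, chr10:85386738-85388231) lay 1767 bp inside Btbd11, and the third (233, chr1:119052026-119053300) lay 1105 bp inside Gli2, a transcription factor of the hedgehog pathway. Meis2, a homeodomain factor, had a peak 4831 bp downstream of its end (209), and the Wnt ligand gene Wnt5a had one 3632 bp inside (204). Eva1c (199), the histone H3.3 gene H3f3b (198), the transcription factor genes Ebf3 (195) and Lhx1 (186), the semaphorin receptor gene Nrp2 (193) and the bromodomain gene Atad2b (185) had peaks inside the gene as well, at 1324 to 3552 bp from the start. The peak of Ssbp4 (192) lay 2539 bp upstream of its start. Of these 12 peaks, 9 lay wholly within the gene of the nearest border.

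Promoter sequences of genes next to the strongest flanking peaks are shown because CG dinucleotides, in capitals, are the element that the CXXC finger binds. They are RefSeq sequences (GRCm38.p6, with mm10 coordinates) and run on the strand of the gene from 250 bases before to 50 bases after an annotated RNA start. The first 5 belong to the nearest genes of the highest-scoring peaks whose closest border is a gene start.
Btbd11: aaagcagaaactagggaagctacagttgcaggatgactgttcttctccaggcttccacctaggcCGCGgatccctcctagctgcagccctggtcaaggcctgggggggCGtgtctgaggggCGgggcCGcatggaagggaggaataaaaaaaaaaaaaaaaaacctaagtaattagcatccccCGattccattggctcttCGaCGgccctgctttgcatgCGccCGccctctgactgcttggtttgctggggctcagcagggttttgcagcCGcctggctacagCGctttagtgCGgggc
Gli2: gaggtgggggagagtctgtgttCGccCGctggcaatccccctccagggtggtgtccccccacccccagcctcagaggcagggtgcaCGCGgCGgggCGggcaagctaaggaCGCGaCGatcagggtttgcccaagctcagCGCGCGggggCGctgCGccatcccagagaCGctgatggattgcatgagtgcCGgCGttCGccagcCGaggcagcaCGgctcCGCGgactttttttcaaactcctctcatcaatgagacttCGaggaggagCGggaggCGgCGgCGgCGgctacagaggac
Eva1c: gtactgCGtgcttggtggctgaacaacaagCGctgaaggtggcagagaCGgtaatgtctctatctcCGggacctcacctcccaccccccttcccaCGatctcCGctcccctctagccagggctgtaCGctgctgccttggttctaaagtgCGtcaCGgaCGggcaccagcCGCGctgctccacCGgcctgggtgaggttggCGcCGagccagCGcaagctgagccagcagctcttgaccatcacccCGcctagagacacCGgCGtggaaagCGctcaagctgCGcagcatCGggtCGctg
H3f3b: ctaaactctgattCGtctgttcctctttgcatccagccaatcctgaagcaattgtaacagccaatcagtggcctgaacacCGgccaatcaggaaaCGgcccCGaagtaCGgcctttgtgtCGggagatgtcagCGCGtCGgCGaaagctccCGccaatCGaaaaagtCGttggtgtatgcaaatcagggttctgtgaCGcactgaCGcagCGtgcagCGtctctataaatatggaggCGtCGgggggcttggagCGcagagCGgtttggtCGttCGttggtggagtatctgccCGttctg
Ebf3: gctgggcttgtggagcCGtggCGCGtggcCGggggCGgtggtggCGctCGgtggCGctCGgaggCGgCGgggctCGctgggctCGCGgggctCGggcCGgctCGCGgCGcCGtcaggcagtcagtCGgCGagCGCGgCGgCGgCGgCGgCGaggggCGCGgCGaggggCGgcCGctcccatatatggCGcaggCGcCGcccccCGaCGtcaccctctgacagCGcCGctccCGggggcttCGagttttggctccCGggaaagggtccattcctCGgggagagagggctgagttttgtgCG
The window of Btbd11 (chr10:85386564-85386863, plus strand) holds 13 CG, and its RNA start lies under the peak. The windows of Eva1c (chr16:90830609-90830908, plus strand, 23 CG) and H3f3b (chr11:116024455-116024754, minus strand, 24 CG) also have their RNA start under the peak. The Gli2 start lies 319 bp from the peak (chr1:119053570-119053869, minus strand, 28 CG), and the closest annotated Ebf3 start is 4044 bp away (chr7:137314396-137314695, minus strand, 46 CG).

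The next 3 strongest flanking peaks that covered an RNA start did so at Atad2b, at the glycine transporter gene Slc6a5 and at Cdkn1a, which encodes the Cdk inhibitor p21.
Atad2b: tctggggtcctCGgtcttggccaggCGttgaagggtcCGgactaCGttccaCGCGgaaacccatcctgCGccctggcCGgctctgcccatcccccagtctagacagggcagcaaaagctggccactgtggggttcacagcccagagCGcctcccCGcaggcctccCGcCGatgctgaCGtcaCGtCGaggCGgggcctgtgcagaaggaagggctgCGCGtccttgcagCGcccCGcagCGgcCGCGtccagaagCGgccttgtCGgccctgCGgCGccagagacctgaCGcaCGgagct
Slc6a5: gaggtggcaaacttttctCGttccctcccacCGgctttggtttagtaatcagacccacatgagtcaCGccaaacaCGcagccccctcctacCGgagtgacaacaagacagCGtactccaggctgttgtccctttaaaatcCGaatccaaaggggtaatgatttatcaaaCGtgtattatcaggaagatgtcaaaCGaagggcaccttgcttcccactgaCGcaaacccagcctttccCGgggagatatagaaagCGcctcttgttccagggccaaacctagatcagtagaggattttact
Cdkn1a: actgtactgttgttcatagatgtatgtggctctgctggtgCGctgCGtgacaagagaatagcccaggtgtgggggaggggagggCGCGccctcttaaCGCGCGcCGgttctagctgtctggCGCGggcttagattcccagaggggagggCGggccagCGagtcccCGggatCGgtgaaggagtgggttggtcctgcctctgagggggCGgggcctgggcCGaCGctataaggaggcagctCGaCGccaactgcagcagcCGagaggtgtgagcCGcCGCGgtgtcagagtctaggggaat
The Atad2b window (chr12:4917103-4917402, plus strand) holds 29 CG, the Slc6a5 window (chr7:49910049-49910348, plus strand) 12 and the Cdkn1a window (chr17:29093519-29093818, plus strand) 23. The Cdkn1a peak (162, chr17:29092843-29095439) started 1864 bp inside the gene, was 2597 bp wide and covered the whole window. For contrast, a single peak of the same band in the non-induced list covered an RNA start, that of the noncoding gene 1700024N05Rik near the receptor gene Olfr13 (score 52.6).
1700024N05Rik: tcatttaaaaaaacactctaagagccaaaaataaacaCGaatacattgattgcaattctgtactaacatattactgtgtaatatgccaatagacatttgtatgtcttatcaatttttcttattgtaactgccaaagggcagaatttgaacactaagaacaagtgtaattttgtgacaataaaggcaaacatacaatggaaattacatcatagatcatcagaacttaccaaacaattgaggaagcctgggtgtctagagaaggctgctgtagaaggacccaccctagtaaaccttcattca
That window (chr6:43172267-43172566, minus strand) holds 1 CG. These 3 promoters and the contrast were chosen after their values were seen.

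The flanking peaks lay mainly inside genes, downstream of the start. Strand was given for the nearest gene of 545 peaks. Of these, 317 (58.2%, 53.9 to 62.3) were inside the gene with the start as the nearest border, and 105 (19.3%) were upstream of the start. Inside the gene before its end lay 62 (11.4%), and 61 (11.2%) lay downstream of the end. These zones offer similar lengths of sequence, between 46.5 and 49.2 Mb each, counted over single positions that meet the same limits. Per Mb there were 6.82 peaks (6.09 to 7.61) inside from the start, 2.13 (1.74 to 2.58) upstream, 1.33 (1.02 to 1.70) inside before the end and 1.31 (1.00 to 1.68) downstream.

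Non-induced-only peaks that meet the same distance conditions numbered 692 of 10345 (6.69%, 6.22 to 7.19) and were spread more evenly. Of the 552 with a strand, 149 (27.0%, 23.3 to 30.9) were inside from the start, at 3.20 per Mb (2.71 to 3.76). Upstream of the start there were 3.13 per Mb, inside before the end 2.29 and downstream of the end 3.04. The induced value inside from the start therefore lay above the non-induced interval, and the induced values in the other zones lay below the corresponding non-induced ones. Of all flanking peaks 523 (72.9%, 69.5 to 76.2) overlapped a protein-coding gene, against 368 of the 692 non-induced-only peaks (53.2%, 49.4 to 56.9), where 54.6% of the band is in such genes.

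**Figure D1:**
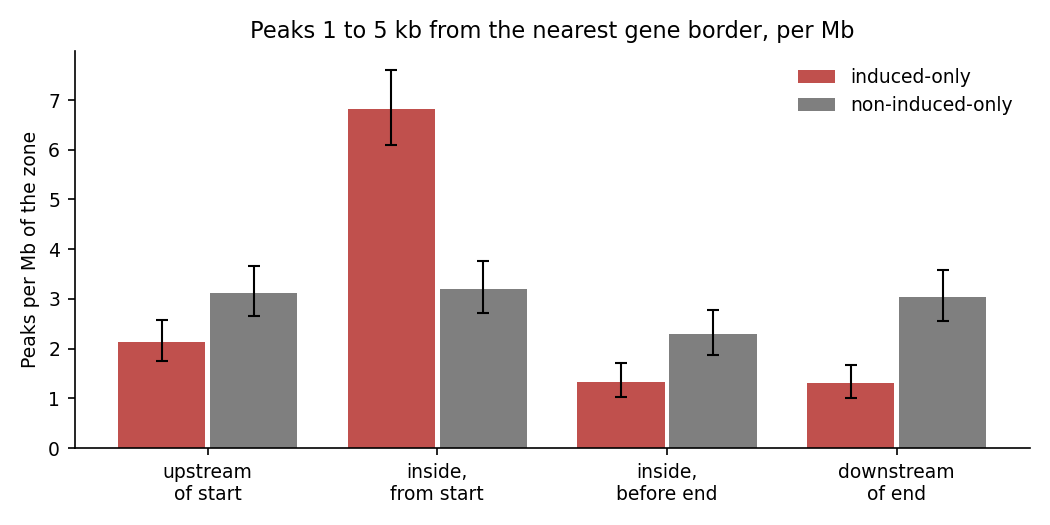
Peaks per Mb at 1 to 5 kb from the nearest protein-coding border, by zone, for induced-only peaks (red) and non-induced-only peaks (grey), with exact 95% Poisson intervals. The induced bar stands at 6.82 inside genes from the start and at 1.31 to 2.13 in the other zones, while the non-induced bars lie between 2.29 and 3.20.

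The number of flanking peaks fell with distance from the border. There were 342 (47.7%) at 1 to 2 kb, 174 (24.3%) at 2 to 3 kb, 121 (16.9%) at 3 to 4 kb and 80 (11.2%) at 4 to 5 kb. On the inner side of the start there were 178, 69, 44 and 26 peaks in these steps, and upstream of the start 37, 30, 23 and 15. Non-induced-only peaks numbered 196, 187, 165 and 144 in the same steps. Median scores of the flanking peaks were 64.7, 66.2, 63.8 and 59.6 in these steps, with intervals that overlap between neighbouring steps.

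**Figure D2:**
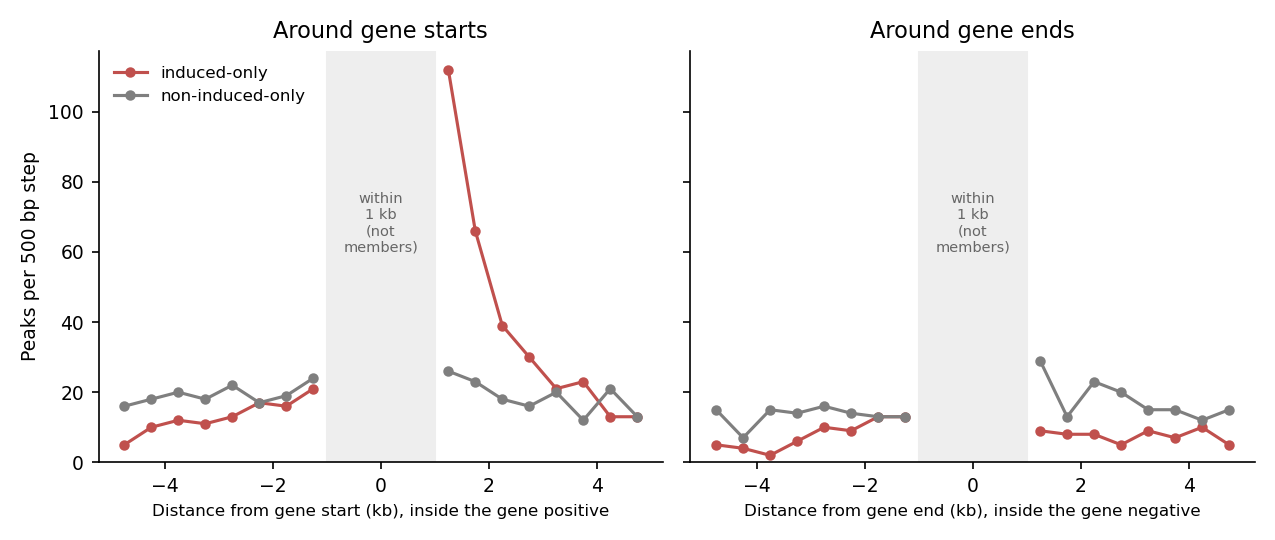
Number of peaks per 500 bp step by distance from the gene start (left) or gene end (right), for induced-only peaks (red) and non-induced-only peaks (grey) whose nearest gene has a strand; the grey area holds the peaks within 1 kb, which are not members. Inside the gene, induced-only peaks run down from 112 at 1 to 1.5 kb to 13 at 4.5 to 5 kb from the start, and non-induced-only peaks from 26 to 13.

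The limits of the band cut through this slope. Just inside the inner limit lay peaks at Sbno1 (1004 bp, score 89.95), Tchh (1005 bp, 148) and Eps8 (1006 bp, 56.0). Just outside it lay those at Macroh2a1 (999 bp, 55.6), BC052040 (998 bp, 79.1) and Pds5a (996 bp, 52.95). At the outer limit, Fhl3 (4988 bp, 52.1), Socs5 (4981 bp, 52.1) and Lmo4 (4974 bp, 63.1) were inside, and Irs1 (5023 bp, 98.9), Fan1 (5045 bp, 51.7) and Adam11 (5046 bp, 167) outside. The border of a gene is the outermost one in the RefSeq gene table, so a flanking peak can still lie on another annotated start of the gene.

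Part of the flanking peaks did lie on annotated RNA starts, counted for the nearest gene or any other. Whether these cells use the starts is not known from the lists. Starts are not listed for every gene on these chromosomes. The nearest gene had a listed start for 545 of the 717 flanking peaks and 552 of the 692 non-induced-only ones. Peaks on unlisted starts count as covering none, so the shares below may be too low. On the chromosomes with annotated RNA starts, 64 of 699 flanking peaks (9.16%, 7.12 to 11.5) covered one, against 1 of 668 non-induced-only peaks of the same band (0.150%, 0.00379 to 0.831). Within 1 kb of an annotated RNA start lay 170 (24.3%, 21.2 to 27.7), against 14 (2.10%, 1.15 to 3.49) in the non-induced list. Among induced-only peaks at borders (within 1 kb) 49.2% covered a start, and among those beyond 5 kb 6.07%. The flanking peaks that covered a start had a median score of 79.8 (66.5 to 97.9) and those that did not 63.7 (62.2 to 65.9). Leaving out the peaks within 1 kb of a start was decided on after seeing the data. Of the remaining peaks with a strand, 43.9% were still inside the gene from its start. This zone makes up 24.6% of the band, measured with the positions near RNA starts kept, so the 2 values rest on unlike sets.

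The genes whose inner starts were covered have varied roles. Besides those named above they include Rassf1 (155), a tumour suppressor gene of the Ras association family, Aldoa (140), which encodes a glycolytic aldolase, the nucleoside transporter genes Slc29a2 (131) and Slc29a1 (102), and Srebf1 (82.6), the regulator of fatty acid synthesis. Igf2, the imprinted growth factor gene, had a peak on an inner start (64.2) and another 2218 bp inside the gene (92.6). These were named after their values were seen.

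Covered promoters were rich in CG. The 70 promoter windows under flanking peaks held a median of 22.5 CG (20 to 24). This was close to the 24 (23 to 25) of the 1584 windows under induced-only border peaks (within 1 kb). All 70 were of protein-coding genes, which is largely set by the rule, because it left out peaks near borders of other biotypes. Windows under induced-only peaks beyond 5 kb held 17 (15 to 19), and the 39 windows under any non-induced-only peak held 4 (1 to 8). These sets differ in biotype. Protein-coding genes gave 1419 of the 1584 windows under border peaks, 69 of the 124 beyond 5 kb and 20 of the 39. All 21263 windows of protein-coding genes held 13, and windows of all biotypes together held 7. How far biotype accounts for the differences between peak classes was not tested. At least 10 CG were found in 65 of the 70 (92.9%, 84.1 to 97.6), against 95.3% of the windows under border peaks, 78.2% of those under induced-only peaks beyond 5 kb, 56.8% of all windows of protein-coding genes and 43.5% of all 32851 windows. CG reads the same on both strands and was searched alone. A match is a description of the sequence, and whether Fbxl10 bound there through CG was not tested. Over the 545 flanking peaks whose nearest gene has a window, covered or not, the window closest to the peak held a median of 21 CG (20 to 23).

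**Figure D3:**
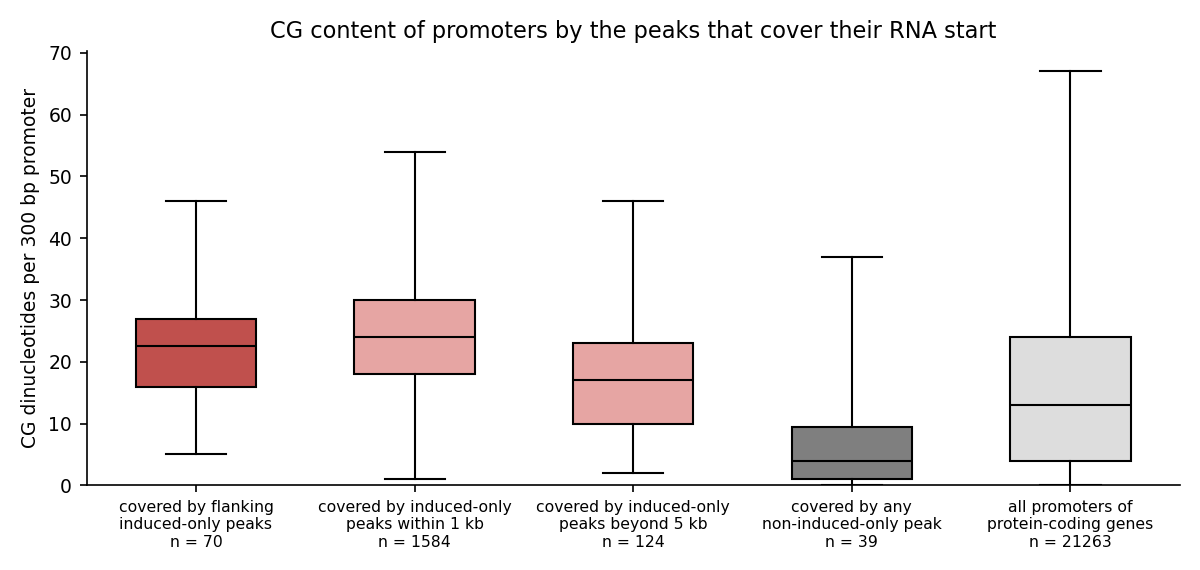
CG dinucleotides per 300 bp promoter window by the class of peak that covers its RNA start; boxes give the quartiles, the line the median and whiskers the lowest and highest value. Windows under flanking induced-only peaks (median 22.5) stand near those under induced-only peaks within 1 kb (24) and above those under non-induced-only peaks (4). All 70 windows of the first set and 20 of the 39 of the last are of protein-coding genes.

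In score and width the flanking peaks stood between the peaks at borders and those farther away. Their median score was 64.5 (63.1 to 66.7), against 78.5 (76.4 to 80.2) within 1 kb of a border, 59.5 (58.4 to 60.9) beyond 5 kb inside genes and 57.8 (57.3 to 58.8) between genes. A score of at least 100 was reached by 123 flanking peaks (17.2%), against 29.8% within 1 kb of a border. Their median width was 753 bp (732 to 772), against 862 bp at borders. The widest were at Sp110 (3630 bp, score 74.2), Cdkn1a (2597 bp) and the predicted gene Gm21083 (2161 bp, 77.2). Among induced-only peaks with scores of 120 or more, 9.81% (7.62 to 12.4) were flanking peaks, and among those of 60 to 80 the share was 14.9% (13.2 to 16.9). Scores come from the contrast that chose the peaks, so they are given as a description.

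**Figure D4:**
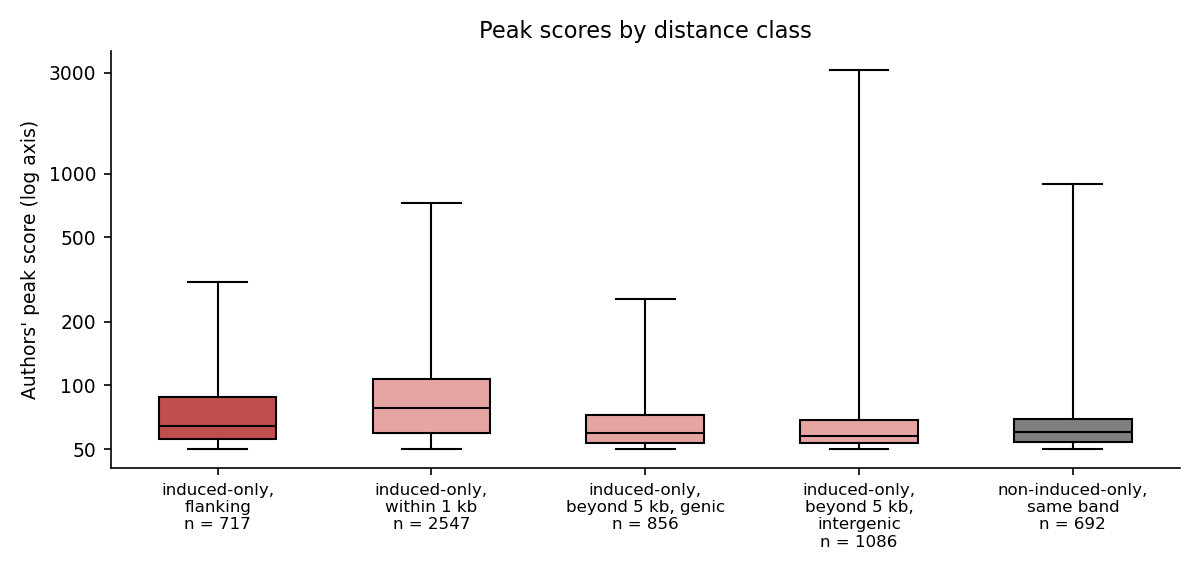
Authors' peak scores on a log axis by distance class; boxes give the quartiles, the line the median and whiskers the lowest and highest score. Flanking induced-only peaks (median 64.5) lie between those within 1 kb of a border (78.5) and those beyond 5 kb (59.5 and 57.8); the non-induced-only peaks of the same band (60.1) come from another list, and a common scale of the scores was not tested.

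Many flanking peaks had company. Another induced peak lay within 5 kb of 226 (31.5%, 28.1 to 35.1), and for 132 of these the closest one was a peak within 1 kb of a border. In the non-induced list 45 of the 692 peaks (6.50%, 4.78 to 8.60) had another non-induced peak within 5 kb. Farther than 5 kb from a border, 8.75% of induced-only peaks (7.53 to 10.1) had an induced neighbour that close. Their distance leaves little room for a border peak as this neighbour, so their low share is partly set by the rule. At borders, 17.2% of the induced-only peaks (15.8 to 18.8) had such a neighbour. The nearest gene of a flanking peak also had an induced peak within 1 kb of an end in 169 cases (23.6%, 20.5 to 26.9), where 13.4% of all protein-coding genes had one. Among induced-only peaks beyond 5 kb the nearest gene had one in 16.8% of cases (15.2 to 18.6). Of the non-induced-only peaks 33 (4.77%, 3.31 to 6.63) had a non-induced peak at an end of their nearest gene, where 1.59% of all genes had one. Some pairs were almost continuous. At Tchh, which encodes a hair follicle protein, a flanking peak lay 9 bp from the border peak of score 404, and at Prdm16, a zinc finger gene, it lay 2 bp from the next induced peak (184). Whether such neighbours form a continuous region was not tested.

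A few genes carried 3 flanking peaks. Isl2, a LIM homeodomain gene of motor neurons, had peaks of 63.7, 107 and 136 inside the gene, the second of them on an annotated start, and no induced peak within 1 kb of an end. The homeobox gene Barx1 had 2 peaks upstream (64.1 and 72.5) and 1 downstream (80.4), and Irx5, another homeobox gene, had 1 inside (104) and 2 outside (51.9 and 57.4). Arhgap27 had 2 inside (136 and 72.3) and 1 downstream (54.1). In all, the 717 peaks had 660 nearest genes, of which 607 had 1 peak, 49 had 2 and 4 had 3.

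Few flanking peaks were close to a non-induced peak, as in the other classes of induced-only peaks. The rule had already removed every peak that overlapped one. The median gap to the nearest non-induced peak was 116 kb, and 8 flanking peaks (1.12%, 0.483 to 2.19) had one within 1 kb. Among induced-only peaks at borders the share was 0.824%, and among those beyond 5 kb 1.96%. The closest were at Iigp1, an interferon-inducible GTPase gene (gap 103 bp, scores 56.0 induced and 126 non-induced), at the zinc finger gene Rex2 (105 bp, 50.5 and 75.3) and at Nrp2 (330 bp, 193 and 59.4). The highest non-induced-only peaks of the same band lay at Gm52481 on chromosome Y (889.53 and 158), Gm21190 (312), Cldn34d (202) and Sult2a8 (175).

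Of 21900 protein-coding genes, 768 (3.51%) had a flanking peak at 1 to 5 kb from either of their ends, and 758 (3.46%) had a non-induced-only peak there. Both lists flanked 36 genes, which is 4.69% of the 768 and 4.75% of the 758. Among the 768, 181 (23.6%) also had an induced peak within 1 kb of an end. Genes of 12 lists were counted against the share of 3.51%, with no test. The lists were chosen with results at the borders of the same genes known, so their order is no independent evidence. High shares were not particular to the flanking band. Every list except olfactory receptors (0%) had induced peaks within 1 kb of an end more often than the 13.4% of all genes. This share was 33.9% for developmental factors, 25.6% for Hox and 39.0% for immediate early genes. It was 63.5% for replication-dependent histone genes and 27.2% for ribosomal protein genes.

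Developmental regulators were flanked most often. Of 115 transcription factor genes of development 36 (31.3%, 23.0 to 40.6) had a flanking peak, with 47 different peaks behind them, and 6 (5.22%) had a non-induced-only one. Gli2, Meis2, Lhx1 and Emx2 (174), a factor of the forebrain and urogenital system, had the highest scores. The median over the 36 genes was 74.4, against 64.7 over all 768. Of the 36 genes, 20 had no induced peak within 1 kb of an end, among them Gli2, Lhx1, Emx2 and Nkx6-1 (118), a factor of the pancreas and neural tube, and 16 had one. Foxa2, Gli3 and Nr2f1 were flanked in both lists, with induced scores of 54.98, 54.0 and 52.9 and non-induced scores of 59.7, 53.7 and 63.5.

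Hox genes set position along the body axis. Of 39, 12 had a flanking peak (30.8%, 17.0 to 47.6), with 9 different peaks because neighbouring Hox genes share them. A peak of 120 inside Hoxa6 (chr6:52206120-52207144) flanked Hoxa5 as well, and a peak of 95.5 outside Hoxc8 also flanked Hoxc9. Hoxb4 (103) had a peak 2298 bp upstream of its start, and Hoxa13 (99.6) had one 3863 bp downstream of its end. No Hox gene had a non-induced-only flanking peak, which allows a share of up to 7.69%. Of the 12 genes, 3 also had an induced peak within 1 kb of an end. Hoxa13 (70.9) and Hoxc8 (59.25) had a non-induced peak within 1 kb of an end, so Hox genes were not free of non-induced peaks.

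Immediate early genes, the first to respond to growth factors, were flanked in 11 of 41 cases (26.8%, 14.2 to 42.9) by 12 peaks, and in none by a non-induced-only peak, which allows up to 7.32%. After Ier2 came the nuclear receptor gene Nr4a2 (159, 3061 bp downstream of its end), the stress gene Gadd45b (106, 3531 bp downstream) and Maff (95.9, 1464 bp inside before the end). Fos itself had a peak 1668 bp upstream of its start (67.6). Of the 11 genes, 4 also had an induced peak within 1 kb of an end.

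Signalling genes came next. In the list of Wnt, Notch, TGF-beta and hedgehog pathways 13 of 97 genes (13.4%, 7.33 to 21.8) were flanked, at a median score of 57.6, with Wnt5a, the Wnt receptor gene Fzd8 (95.5), the BMP receptor gene Bmpr1a (84.7) and Axin2 (65.3), a feedback inhibitor of Wnt signalling, highest. In the non-induced list 5 were, Bmp4 (147) highest. Of 70 axon guidance genes 9 (12.9%, 6.05 to 23.0) were flanked, led by Nrp2, Sema5b (154), Sema4c (123) and the ephrin receptor gene Ephb3 (123), against 2 in the non-induced list.

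The next lists had lower shares than the signalling and axon guidance lists, with intervals that overlap theirs. Only the interval of the cell cycle list lay wholly above the 3.51% of all genes. Of 69 cell cycle, Cdk inhibitor and p53 genes 7 (10.1%, 4.18 to 19.8) were flanked, led by Cdkn1a, Ccna2 (97.6), the replication factor gene Rfc1 (60.4) and Myc (56.4), and 0 had a non-induced-only peak, which allows up to 4.35%. Of 53 Polycomb and lysine demethylase genes 5 (9.43%, 3.13 to 20.7) were, Cbx8 (99.4), Pcgf2 (98.2) and the H3K27 demethylase gene Kdm6b (91.7) among them, against 1 in the non-induced list. Of 66 fibroblast matrix and cytoskeleton genes 5 (7.58%, 2.51 to 16.8) were, led by the PDGF receptor gene Pdgfra (107), the collagen receptor gene Ddr2 (91.2), the calponin gene Cnn1 (60.3) and Tpm1 (55.4), against 2. Replication-dependent histone genes had 4 of 63 (6.35%, 1.76 to 15.5) with 2 peaks behind them, led by H2bc6 and H4c4 (64.3, a shared peak), against 3 (4.76%) in the non-induced list. Of 81 ribosomal protein genes 3 (3.70%, 0.770 to 10.4) were flanked, Rps29 (68.5) highest, against 2 (2.47%) in the non-induced list.

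Olfactory receptor genes were flanked by an induced-only peak in 7 of 1110 cases (0.631%, 0.254 to 1.30), with scores of at most 60.9 at Olfr1033, and by a non-induced-only peak in 48 (4.32%). Of 30 marker genes of other cell types 1 was flanked, Gad1 of inhibitory neurons (69.8), and 1 in the non-induced list, Map2 (50.3).

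**Figure D5:**
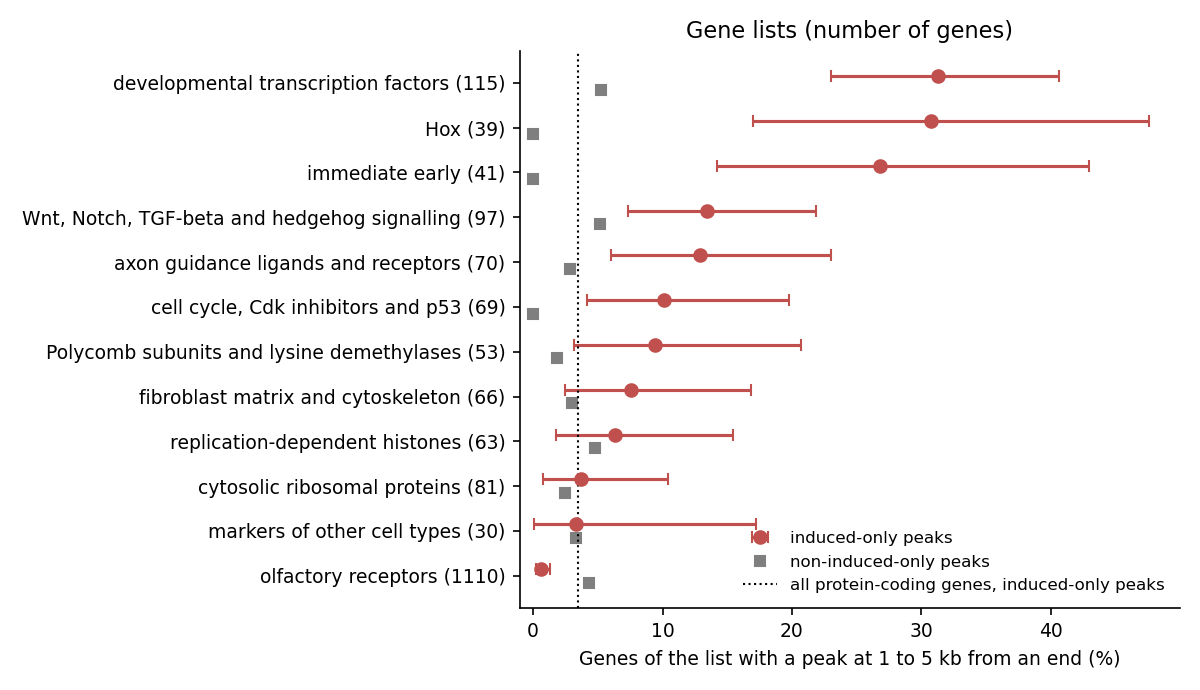
Share of the genes of each list with an induced-only peak (red, with exact 95% interval) or a non-induced-only peak (grey) at 1 to 5 kb from an end; the dotted line is the share of all protein-coding genes, 3.51%. Developmental transcription factors (31.3%), Hox genes (30.8%) and immediate early genes (26.8%) stand highest for induced-only peaks, and olfactory receptors (0.631%) lowest.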

How the data were processed

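Peaks of HA ChIP-seq in MEFs were analysed, with 1 deposited list for induced and 1 for non-induced cells, assigned by their marks for with and without as in the sample titles. Chromatin (7 µg) was precipitated with 5 µg of antibody, per the labels' protocols. Bowtie2 and mm10 are named in the submitters' processing notes, and MACS in the peak names of the files. For version, threshold, pooling and use of the input, these sources are silent. The score of each peak is the authors' deposited value, used only to describe and rank peaks and in 1 alternative as a filter. The lists hold no read counts, so depth is unknown.

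Distances ran from the nearer peak edge to the ends of protein-coding genes of the RefSeq table (GRCm38.p6). Any overlap of 1 bp removed a peak. Strand and RNA starts came from the RefSeq promoter table, which holds no chromosome 18 and lacks some genes of other chromosomes. The planned measures were descriptive. Shares have Clopper-Pearson, densities Poisson and medians order-statistic intervals at 95%. For a share of 0 the limit is 3 counts of the total. Zone lengths were measured every 10 bp. Named peaks are the 12 highest, the 3 widest, those at genes with 3 peaks, the 3 nearest each limit and a non-induced peak, and up to 4 per list; others are marked, and 1 gene of a list is not reported here. Members and lists were chosen with earlier results of these data known. Distances and overlaps differed from bedtools 2.31.1 for 0 peaks, and the functions were tested on simulated data. Scripts ran in Python 3.11.15 with pandas 2.3.3, numpy 2.4.6 and SciPy 1.17.1, and figures were drawn in matplotlib 3.10.9.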

Additional observations from a re-analysis of the deposited data

How the results depend on the processing

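Of 140 values (14 results under 10 alternatives), 106 stayed within the interval of the reported value or within 1.5 times a count, and 34 moved. With scores at or above the induced median (66.6) there were 340 flanking and 219 non-induced-only peaks, 372 flanked genes and 23 flanked developmental factors. There 77.1% overlapped a gene, 63.1% lay inside from the start, 19.1% had a border peak at the nearest gene, 27.4% had another induced peak within 5 kb, and the median score and width were 91.05 and 923 bp. With distances from the midpoint these were 76.9% in a gene, 82.0% nearest to a start, 64.2% inside from it, a median score of 69.0 and a width of 790 bp; the 47.0% with a border peak then include peaks whose own edge is within 1 kb. An outer limit of 3 kb gave 78.3% in a gene, 63.5% inside from the start and 383 non-induced-only peaks. An inner limit of 2 kb gave 375 flanking peaks, 398 genes, 65.6% in a gene, 72.1% nearest to a start, 48.4% inside from it, a median of 18 CG, 6 Hox and 5 immediate early genes. Without peaks within 1 kb of an RNA start, 64.9% were in a gene, 70.4% nearest to a start and 43.9% inside from it, with a median score of 63.0, a width of 728 bp and 19 CG. With the highest peak of each gene, 27.3% had another induced peak within 5 kb. These last 2 alternatives, every alternative for the 3 gene lists, and the share inside from the start with its alternatives were added after the data were seen. No paired analysis was possible because each condition has 1 list. Depth is unknown and limits what a missing peak shows.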

Other observations

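Flanking peaks were found on every autosome, between 16 on chromosome 16 and 65 on chromosome 11, and chromosome X had 3 for 966 protein-coding genes. Per 100 protein-coding genes chromosome 12 had 5.30 and chromosome X 0.311. Chromosome X was low in induced-only peaks of any kind, with 11 against 198 on chromosome 12. Flanking peaks were 27.3% of these on chromosome X and 18.2% on chromosome 12, against 13.5% of all induced-only peaks.

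Some genes with 2 flanking peaks were chosen here after their values were seen. Pdgfra, the receptor gene of many mesenchymal cells, had peaks of 82.0 and 107 at 1909 and 2913 bp inside the gene, 251 bp apart, and no induced peak within 1 kb of an end. Evx2, a homeobox gene beside the Hoxd cluster, had a peak of 132 inside the gene, 173 bp from an annotated RNA start, and a peak of 62.7 upstream. The Polycomb gene Cbx8 had peaks of 99.4 upstream and 74.3 inside before the end, the second 348 bp from a border peak of 76.7.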
